A study of Oryza sativa with 12 samples.

Results

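The leaf response of the rice mutant idr1-1 to drought was measured by messenger RNA sequencing. It rests on 6 of the 12 libraries of the series, all that came from the mutant: 3 from plants under drought and 3 from control plants, each called a biological replicate in the labels. The cultivar was IAPAR9, an upland rice, and the mutant was represented by the single line idr1-1, whose lesion is known from the study to lie in RGA1. That gene encodes the alpha subunit of a heterotrimeric G protein. All plants were 5 weeks old, at the stage of 5 leaves, and grew in concrete tanks; the drought plants were harvested once the soil had dried to 10% moisture, and the controls had no stress. The other 6 libraries, IAPAR9 wild type under the same 2 treatments, enter through the shared estimate of spread and the difference of the responses. The tissue is labelled leaf, while the extraction protocol speaks of seedlings.

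A drying plant raises abscisic acid, the hormone that closes stomata. The hormone binds receptors that then block the clade A protein phosphatases 2C, which frees SnRK2 kinases to activate transcription factors. Their targets include the late embryogenesis abundant (LEA) proteins, dehydrins among them, which shield proteins and membranes during water loss, and enzymes that make compatible solutes such as proline. Growth, flowering and nitrogen uptake usually slow at the same time.

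The idr1-1 libraries held 19100444 to 22954001 counts each, and 28871 to 30111 loci had a count. Drought replicate 3 stood apart from its group. Across loci its log2 CPM (counts scaled to a library size shared by all) correlated at 0.964 and 0.947 (Pearson r) with drought replicates 1 and 2, which correlated at 0.977 with each other, and the 3 control pairs gave 0.981 to 0.984. Its scaling factor was 1.11 against 0.890 and 0.897 for the other drought libraries, and its 20 most abundant loci took 12.3% of its counts against 16.9% and 15.9%. A fit that weights libraries by quality gave it 0.204 against 0.746 or more in the other 11 libraries. Drought replicates 1 and 2 correlated with the wild type drought libraries at 0.9644 to 0.9751, and replicate 3 at 0.9565 to 0.9668. The counts of each list are therefore given with and without it where they differ, and so are the values of most genes given library by library. Among the named genes, the leaf markers CAB1R, CAB2R and RCA were abundant, with CAB1R at 11970 CPM or more in each idr1-1 library. Of the markers of other tissues, OSH15 of the shoot apex, MADS6 and MADS7 of the inflorescence and LSI2 of the root had no count in any idr1-1 library, while FON1 of the shoot apex and LSI1 of the root, on the same lists, had 28.4 to 31.9 and 18.8 to 20.3 CPM in control.

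Levels are in normalised CPM and are compared between libraries of 1 gene and not between genes. The fold changes are log2 values of drought over control from edgeR's quasi-likelihood test over all 12 libraries, with a standard error (SE) and a p-value adjusted by the Benjamini-Hochberg method over the 22833 genes tested. A gene is said to have risen or fallen where the adjusted p is under 0.05. In bulk leaf tissue, fewer cells of a type and less RNA per cell cannot be told apart. Gene names are assignments of published names to the locus identifiers measured.

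RGA1 (LOC_Os05g26890) had a low and even level in the mutant libraries. It stood at 11.14, 12.52 and 12.01 CPM in the control replicates and at 12.3, 14.2 and 11.1 CPM under drought. The groups overlapped, and the log2 fold change was 0.07 (SE 0.11, adjusted p = 0.66), or 0.15 (SE 0.12, adjusted p = 0.36) without drought replicate 3. Every mutant library lay below the wild type libraries, whose lowest value was 24.0 CPM. RGB1, the beta subunit, gave 0.08 (SE 0.09, adjusted p = 0.51).

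Drought changed genes in both directions in similar numbers in idr1-1 leaves. Of 22833 genes, 8129 (35.6%) were called, 4118 up (18.0%) and 4011 down (17.6%). Without drought replicate 3 the numbers were 8590 of 23197 genes (37.0%), 4275 up (18.4%) and 4315 down (18.6%). The calls shared in direction numbered 7063, which is 86.9% of the calls with all libraries and 82.2% of those without replicate 3, and 0 genes were called in opposite directions. The size of the changes moved more than their number. With all libraries, the genes called with a log2 change of at least 3 numbered 471 up and 198 down, and without replicate 3 they numbered 369 and 285. At 5 or more the numbers were 162 up and 45 down, against 118 and 69.

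**Figure D1:**
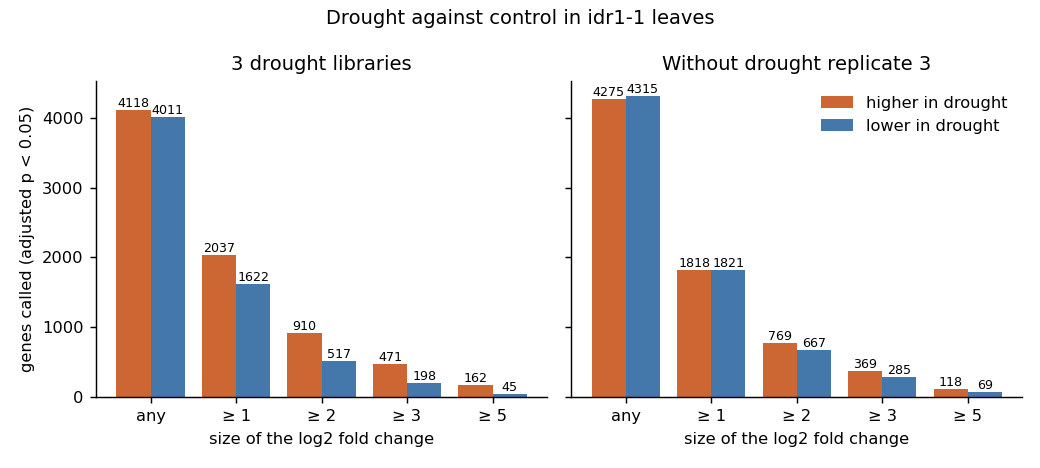
Number of genes called (y axis) at or past each size of the log2 fold change (x axis), higher in drought in orange and lower in blue, with 3 drought libraries on the left and without drought replicate 3 on the right. At a log2 change of at least 1, 2037 genes were higher and 1622 lower with all libraries, and 1818 and 1821 without replicate 3.

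The named genes come from 30 lists of pathways and cell type markers. The gene table bore out 210 names, of which 190 passed the filter on low counts and 20 did not. Of the 190 tested, 73 rose and 37 fell (57.9% called, beside 35.6% of all genes). The counts of each list below stand beside 18.0% up and 17.6% down over all genes tested. Many of the named genes are textbook drought genes, picked with earlier results known, so their share says nothing about genes at large. Their median log2 fold change was 0.23, and that of all genes tested was 0.01. Of the 110 calls, 101 held without drought replicate 3, 9 were lost and 11 others were gained.

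**Figure D2:**
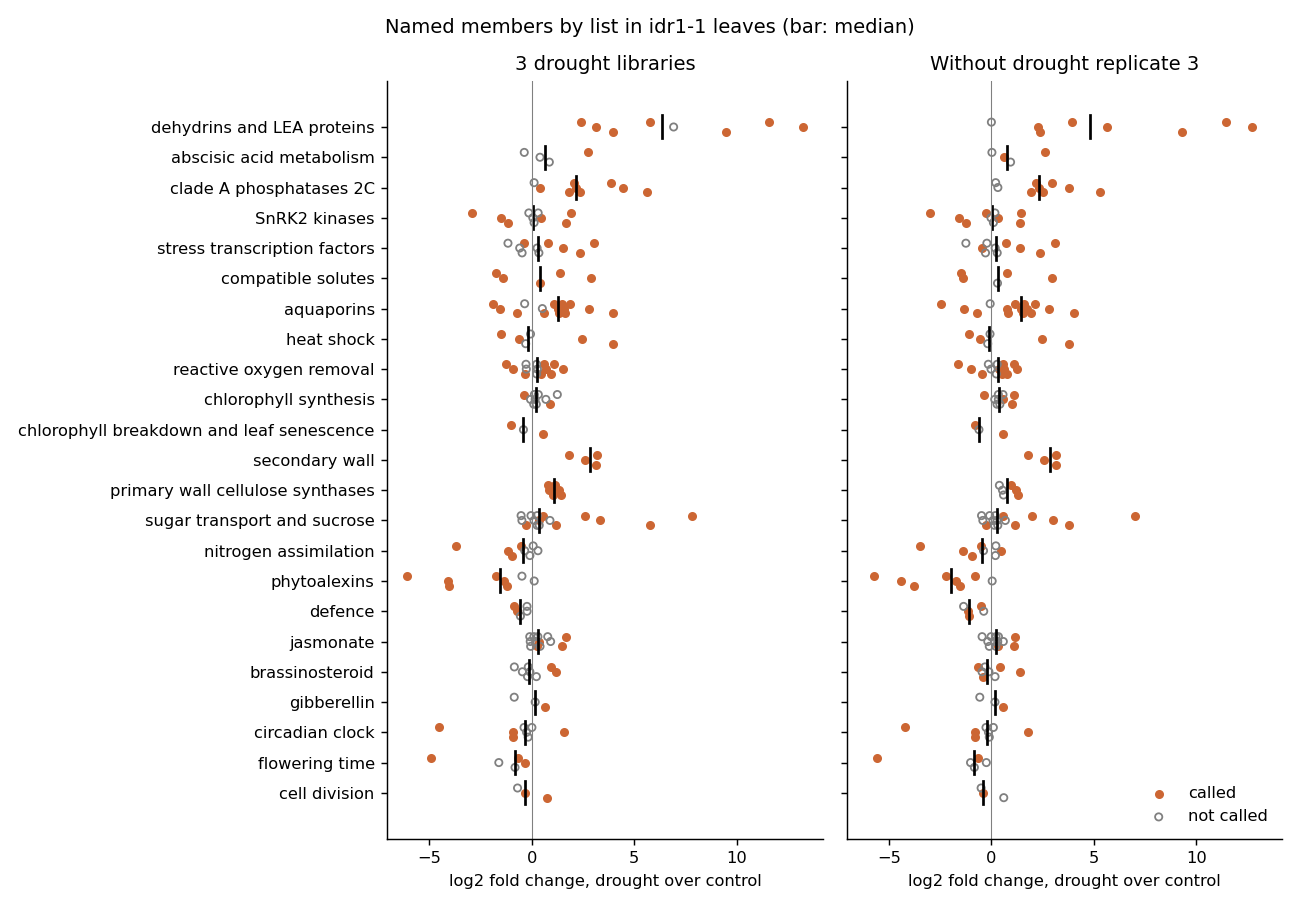
Log2 fold change of drought over control (x axis) for each tested member of the lists with 3 or more tested members (y axis), filled where called and open where not, with a bar at the list median; the right panel leaves out drought replicate 3. The dehydrin and LEA list reaches farthest to the right, with a median of 6.35 (4.79 without replicate 3), and the phytoalexin list has a median of -1.55 (-1.96).

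Dehydrins and LEA proteins rose, several of them from a few counts and DHN1 from a level already well above that. Of 8 tested members 7 rose and 0 fell, with a median log2 fold change of 6.35 beside 0.01 for all genes, and the same 7 to 0 without replicate 3. RAB16A (LOC_Os11g26790, also RAB21), a dehydrin, had 0.0468, 0 and 0.05003 CPM in the control libraries, which is 2 counts in all, and 233, 290 and 608 CPM under drought. Replicate 3 held more than the other drought libraries did, and no control library came near them. The log2 fold change was 13.24 (SE 0.62, adjusted p = 1.7e-07), and 12.71 (SE 0.31) without replicate 3. Its neighbour RAB16B (LOC_Os11g26780) had 0 to 0.0530 CPM in control and 86.5, 135 and 133 CPM under drought (11.56, SE 0.36, adjusted p = 1.6e-08; 11.46 without replicate 3). RAB16C had 1.69, 1.80 and 1.25 CPM in control and 21.5, 27.0 and 26.5 CPM under drought (3.98, SE 0.23; 3.93 without replicate 3). The 4 RAB16 genes lie side by side on chromosome 11 and resemble each other, and reads were counted in part by fractions, so how reads fell among them is uncertain.

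DHN1, a dehydrin as well, stood at 36.6, 35.8 and 35.4 CPM in control and at 166, 190 and 222 CPM under drought (2.42, SE 0.20, adjusted p = 4.5e-06; 2.297 without replicate 3). The group 3 LEA protein LEA3-1 (LOC_Os05g46480) went from 0.0468, 0.159 and 0.1001 CPM to 46.7, 87.1 and 90.8 CPM (9.47, SE 0.48, adjusted p = 2.4e-07; 9.30 without replicate 3). Replicate 1 was the lowest of the drought libraries, and it was still far above all controls. RAB16D, a further dehydrin, stood at 0.0936 to 0.212 CPM in control and at 0.693, 0.729 and 2.24 CPM under drought (3.15, SE 0.71, adjusted p = 0.0052; 2.36 without replicate 3), so replicate 3 carried the highest value here too. LEA3-2 had 0.495, 1.75 and 1.39 CPM under drought (5.77, SE 1.15, adjusted p = 0.0024; 7.73 without control replicate 1). EMP1, of the LEA family that accumulates in seeds, had no count in 5 of the 6 libraries and 2.02 CPM in drought replicate 3, and did not pass the test (adjusted p = 0.096). All 8 members were higher in replicate 3 than in the mean of replicates 1 and 2, by a median of 0.51 on the log2 scale.

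**Figure D3:**
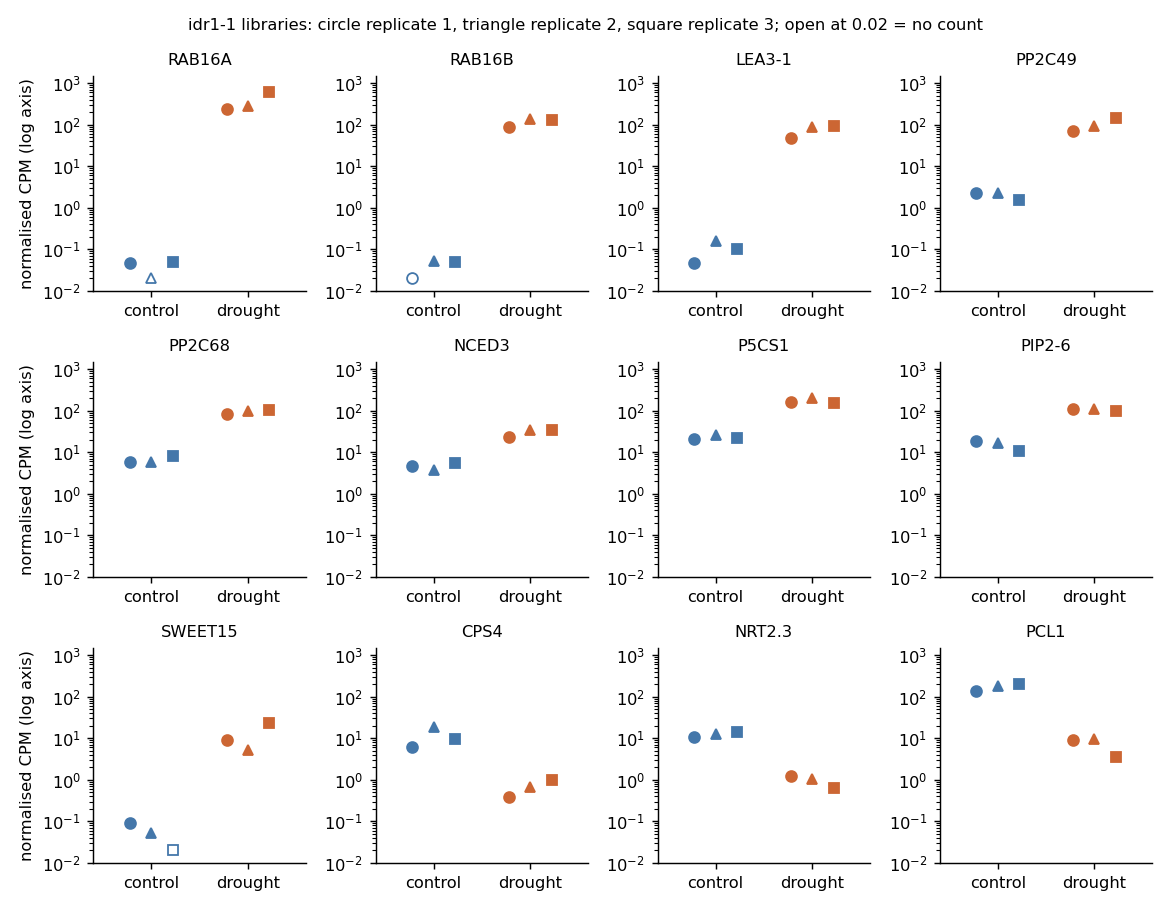
Normalised CPM on a log axis for 12 named genes in the 3 control (blue) and 3 drought (orange) libraries of idr1-1, with circle, triangle and square for replicates 1, 2 and 3 and an open symbol at 0.02 where a library had no count. The groups are apart in every panel, RAB16A and SWEET15 are highest in drought replicate 3, and PCL1 is lowest there.

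In the abscisic acid core, the RNA of the synthesis gene NCED3 and of most phosphatases rose. The SnRK2 kinases moved both ways, and the hormone itself is not in these data. NCED3 (LOC_Os03g44380), which cleaves carotenoids in the committed step of abscisic acid synthesis, stood at 4.73, 3.77 and 5.40 CPM in control and 23.0, 35.1 and 34.95 CPM under drought. The groups did not overlap, and it rose by 2.74 (SE 0.30, adjusted p = 4e-05; 2.64 without replicate 3). Of 4 tested members of abscisic acid metabolism 1 rose, and 2 without replicate 3. The hydroxylases that break the hormone down were not called: ABA8OX1 gave 0.85 (adjusted p = 0.062) and ABA8OX2 gave 0.39 (adjusted p = 0.18). ABA8OX1 stood at 3.4 to 9.31 CPM in control and at 10.5 to 15.0 CPM under drought. It was called under 3 of 16 alternatives (adjusted p down to 0.029). The gene gained without replicate 3 was ABA8OX2 (0.61, SE 0.16, adjusted p = 0.011). Its value in replicate 3 was 41.7 CPM, against 75.7 and 71.4 CPM in the other drought libraries. ABA8OX3 stood at 19.98 CPM in replicate 3 and at 66.7 to 81.2 CPM in the other 5 libraries.

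Of 9 clade A phosphatases 2C, the brakes of this pathway, 8 rose and 0 fell, with a median of 2.15. PP2C49 (LOC_Os05g38290) had 2.29, 2.23 and 1.55 CPM in control and 69.2, 92.4 and 141 CPM under drought (5.64, SE 0.41, adjusted p = 2.1e-06). PP2C68 (LOC_Os09g15670) had 5.90, 5.78 and 8.05 CPM and then 82.0, 99.8 and 101 CPM (3.84, SE 0.29, adjusted p = 3.1e-06). Both were well separated, and both kept their calls without replicate 3, at 5.31 and 3.78. PP2C30, PP2C06 and PP2C09 rose by 2.34, 2.15 and 2.07. PP2C51 rose by 4.45 (SE 1.17, adjusted p = 0.011) at low counts, with 0.0989, 0.243 and 1.07 CPM under drought. Its log2 fold change was 2.98 without drought replicate 3 and 6.41 without control replicate 3. PP2C08 lost its call without replicate 3 (0.32, adjusted p = 0.092), which left 7 up.

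The SnRK2 kinases, which the phosphatases restrain, moved both ways: 3 of 10 rose and 3 fell. SAPK9 (LOC_Os12g39630) went from 35.3, 38.6 and 37.7 CPM to 4.90, 4.33 and 5.38 CPM (-2.93, SE 0.15, adjusted p = 2.3e-07). SAPK2 went from 122, 117 and 108 CPM to 44.8, 33.8 and 43.6 CPM (-1.51, SE 0.11, adjusted p = 2.2e-06). These libraries agreed closely within each group, replicate 3 included. SAPK4 and SAPK3 rose by 1.89 (SE 0.27) and 1.66 (SE 0.20), with SAPK4 at 30.7, 36.3 and 71.8 CPM under drought. Without replicate 3 SAPK9, SAPK2, SAPK4 and SAPK3 gave -3.02, -1.56, 1.42 and 1.43, and SAPK8 (-0.27, adjusted p = 0.019) made 4 that fell. Of 10 stress transcription factors 4 rose and 1 fell, the same counts as without replicate 3. BZIP23, a leucine zipper factor of abscisic acid signalling, rose from 24.9 ± 2.17 to 126 ± 19.1 CPM (mean ± SD, n = 3; log2 2.34, SE 0.13, adjusted p = 3.5e-07; 2.40 without replicate 3). TRAB1, of the same class, rose by 0.79 and NAC4 by 1.52, DREB1C rose by 3.05 at 1.17 to 1.34 CPM under drought, and DREB2B fell by 0.40. DREB1C lost its call under 3 of 16 alternatives (adjusted p up to 0.078), and its log2 fold change was 4.48 without control replicate 1.

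All 5 named genes of compatible solutes were called, 3 up and 2 down. P5CS1 (LOC_Os05g38150), which catalyses the first step of proline synthesis, went from 20.7, 25.3 and 22.3 CPM to 159, 198 and 152 CPM (2.90, SE 0.14, adjusted p = 2.2e-07; 2.97 without replicate 3). Its paralogue P5CS2 had 7.44 to 8.44 CPM in control and 9.60, 17.0 and 33.6 CPM under drought, a wide spread led by replicate 3 (1.36, SE 0.35, adjusted p = 0.0098; 0.76 without it). TPP1 and TPP2, trehalose-phosphate phosphatases, fell by 1.76 (adjusted p = 0.01) and 1.40 (adjusted p = 0.015) at low counts. TPP1 went from 117 counts over the control libraries to 36 under drought, and TPP2 from 118 to 46. Without replicate 3 they gave -1.51 and -1.40, and their calls were lost under 2 and 3 of 16 alternatives. BADH1, an aldehyde dehydrogenase linked to glycine betaine, rose by 0.40 (adjusted p = 0.016) and lost its call without replicate 3 (0.30, adjusted p = 0.052).

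Most water channels rose. Of 15 aquaporins tested 10 rose and 3 fell, with a median of 1.27, and without replicate 3 the counts were 11 and 3 with a median of 1.46. PIP2-6 (LOC_Os04g16450), in the plasma membrane, went from 18.5, 16.6 and 10.7 CPM to 107, 113 and 97.0 CPM (2.79, SE 0.18, adjusted p = 1.1e-06; 2.84 without replicate 3). PIP1-2 went from 331, 279 and 311 CPM to 825, 876 and 890 CPM (1.49, SE 0.11). PIP2-2 rose by 1.63 (SE 0.30) with 517 and 409 CPM in drought replicates 1 and 2 but 177 in replicate 3. The vacuolar channels TIP1-2 and TIP2-2 rose by 1.34 and 1.27, TIP2-2 from 95.1 to 95.6 CPM in control to 293, 278 and 120 CPM. TIP4-1 fell by 1.90 (SE 0.33), from 269 to 319 CPM to 71.1, 38.5 and 129 CPM, PIP2-4 fell by 1.55 and PIP2-7 by 0.71. Without replicate 3 PIP2-2, TIP1-2, TIP2-2 and TIP4-1 gave 1.96, 1.55, 1.58 and -2.45. In replicate 3, 13 of the 15 channels lay below the mean of drought replicates 1 and 2, by a median of -0.75 over the list. The remaining 3 channels, PIP2-8, TIP2-1 and TIP5-1, were too low to test.

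Of 6 heat shock genes 2 rose, both chaperones, and 2 of the 4 factors fell. HSP101, a protein disaggregase, went from 4.30, 3.82 and 3.85 CPM to 22.2, 22.7 and 19.6 CPM (2.42, SE 0.12, adjusted p = 2.2e-07), and the small heat shock protein HSP17.7 rose by 3.96 (SE 0.29). The heat stress factors HSFA2D and HSFA3 fell by 1.52 (SE 0.41) and 0.64 (SE 0.13), with HSFA2D at 58.3, 58.9 and 13.9 CPM under drought, so replicate 3 lay far under the rest. HSFA2A (-0.30, adjusted p = 0.68) and HSFA2C (-0.07, adjusted p = 0.67) were not called. Without replicate 3 HSP101, HSP17.7 and HSFA2D gave 2.48, 3.80 and -1.102. Of 14 genes that remove reactive oxygen, 6 rose and 3 fell, beside 18.0% up and 17.6% down over all genes. Without replicate 3 SODCC1 (0.37, adjusted p = 0.0051) made 7 that rose. APX8, which rose, lost its call under 6 of 16 alternatives, and CATB, which fell, under 7. SODCP, the chloroplast superoxide dismutase, rose by 1.101 (SE 0.13, adjusted p = 6.1e-05), SODCC2 and SODA rose by 0.92 and 0.66, and APX7 (-0.94, SE 0.12), a peroxidase of the chloroplast, fell with the catalase CATA (-1.27, SE 0.25). APX3 rose by 1.51 at 1.46 to 2.78 CPM under drought. SODCP, SODCC2 and CATA gave 1.08, 0.60 and -1.65 without replicate 3. RBOHB, an NADPH oxidase that makes superoxide, fell by 0.43 (SE 0.13, adjusted p = 0.024), and lost its call under 6 of 16 alternatives (-0.59 to -0.32, adjusted p up to 0.12).

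Of the chloroplast lists, 0 of 2 light-harvesting genes, the 1 carbon fixation gene and 2 of 10 chlorophyll synthesis genes were called, beside 35.6% of all genes. RCA (LOC_Os11g47970), Rubisco activase, rose from 2006, 2313 and 2609 CPM to 7084, 6941 and 4385 CPM (1.41, SE 0.22, adjusted p = 0.00053; 1.598 without replicate 3), with replicate 3 the lowest of the drought libraries and above all controls. CAB1R and CAB2R, of the light-harvesting complex, gave 0.22 (adjusted p = 0.56) and 0.41 (adjusted p = 0.26). Of chlorophyll synthesis CAO, which makes chlorophyll b, rose by 0.89 (SE 0.18) and CHLG, the chlorophyll synthase, fell by 0.40. Without replicate 3 the counts were 3 up and 1 down, GLUTR (1.02, SE 0.22) and CHLH (0.59, SE 0.13) joining CAO. GLUTR, the reductase that starts the pathway, stood at 270, 334 and 395 CPM in control and at 704, 648 and 250 CPM under drought. Its first 2 drought libraries lay above the controls and replicate 3 below them. Of the 10 genes, 9 were lower in replicate 3. Of the chlorophyll breakdown genes NYC1 fell by 1.04 (SE 0.25), NOL, its partner reductase, rose by 0.56 (SE 0.11), and SGR, which strips magnesium from chlorophyll in senescing leaves, gave -0.41 (adjusted p = 0.26). The summed level of these 3 genes was 381 to 467 CPM in control and 179 to 291 CPM under drought. Most of it was NYC1, at 313 to 417 CPM in control and 116 to 226 CPM under drought.

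Cellulose synthase genes rose in idr1-1 leaves. The 3 synthases of secondary walls, the thick walls of vessels and fibres, and BC1, which aids the assembly of their cellulose, all rose (4 of 4, median 2.86, and 2.85 without replicate 3). CESA4 (LOC_Os01g54620) stood at 1.92, 5.20 and 1.40 CPM in control and at 20.8, 12.5 and 17.1 CPM under drought (2.58, SE 0.40, adjusted p = 0.00042). CESA7 (LOC_Os10g32980) had 1.45, 5.30 and 1.05 CPM and then 26.7, 19.0 and 22.3 CPM (3.14, SE 0.45), and CESA9 (LOC_Os09g25490) 1.26, 4.35 and 1.35 CPM and then 25.3, 15.3 and 20.8 CPM (3.15, SE 0.40). In all 4 genes control replicate 2 was the highest control and drought replicate 2 the lowest drought library, and the groups stayed apart. Without control replicate 2 the log2 fold changes of CESA4, CESA7, CESA9 and BC1 were 3.33, 4.17, 3.96 and 2.35. Since these genes also mark vascular and fibre cells, their summed level is given as such: 4.60 to 16.8 CPM in control and 49.8 to 77.8 CPM under drought. The share of such cells in each sample was not tested.

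The 6 synthases of primary walls, made while cells expand, also rose (6 of 6, median 1.09), and 3 of them kept the call without replicate 3 (median 0.77). CESA8, CESA6 and CESA1 rose by 1.42, 1.34 and 1.13 (1.23, 1.29 and 0.95 without replicate 3). CESA2, CESA3 and CESA5 rose by 0.85, 1.04 and 0.76 and did not pass without it (0.39, 0.59 and 0.54, adjusted p = 0.13, 0.14 and 0.12). Their calls were lost under 8, 8 and 9 of 16 alternatives, that one included. CESA3 stood at 99.1, 64.8 and 171 CPM under drought against 51.1, 77.9 and 33.8 CPM in control, so the groups overlapped.

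**Figure D4:**
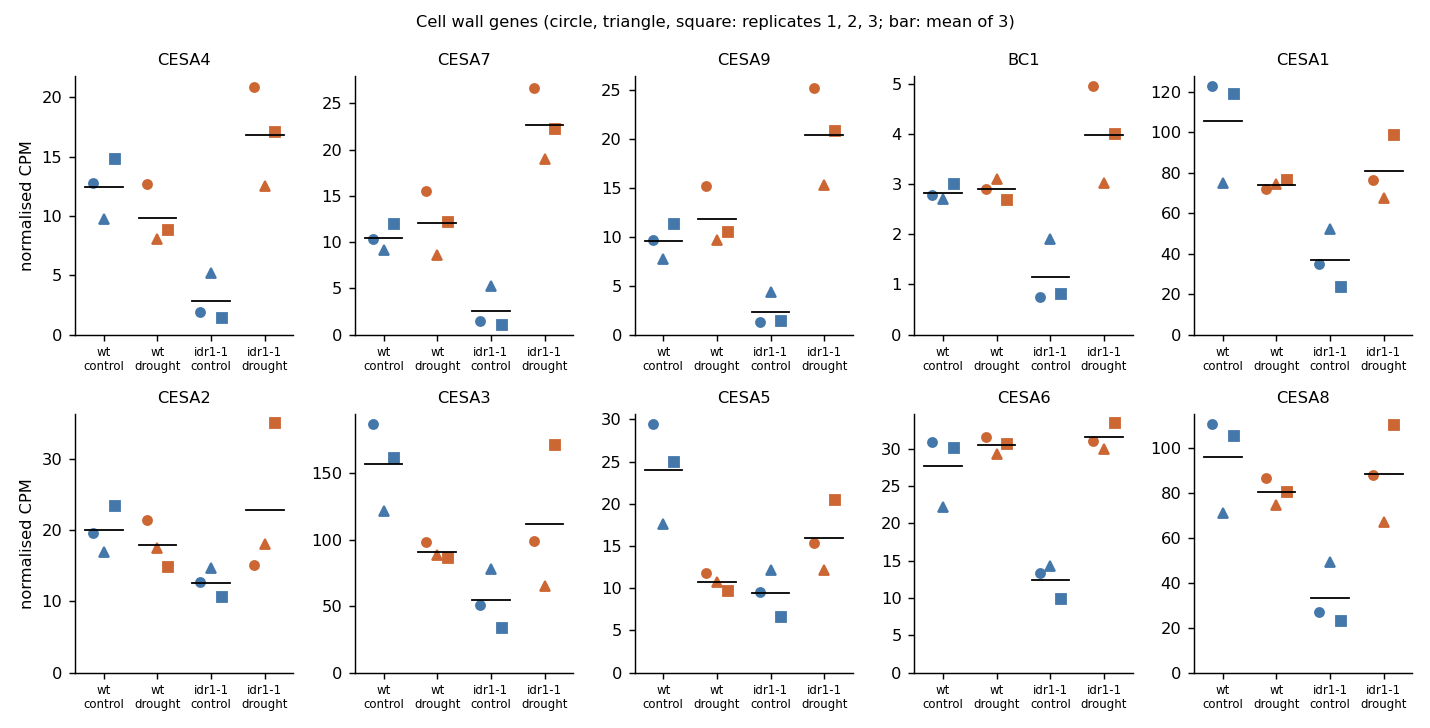
Normalised CPM of 4 secondary wall genes and 6 primary wall cellulose synthases in the 12 libraries, by genotype and treatment, with symbols for replicates 1, 2 and 3 and a bar at the mean of 3. For CESA4, CESA7, CESA9 and BC1 each idr1-1 control library lies below the wild type libraries, and the idr1-1 drought libraries lie above the wild type range for CESA7 and CESA9.

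Of the SWEET transporters, which let sugar leave cells, SWEET11, SWEET13 and SWEET15 rose from low levels, and SWEET4 (-0.49, adjusted p = 0.12) and SWEET14 (-0.53, adjusted p = 0.14) were not called. SWEET15 (LOC_Os02g30910) went from 0.0936, 0.0530 and 0 CPM to 8.95, 5.35 and 23.0 CPM (7.81, SE 0.90, adjusted p = 5.5e-05; 7.003 without replicate 3). SWEET13 (LOC_Os12g29220) went from 2.34, 3.71 and 1.65 CPM to 23.1, 18.4 and 36.2 CPM (3.34, SE 0.31, adjusted p = 1.1e-05; 3.02 without replicate 3). SWEET11 rose by 5.75 (SE 1.37) with 0.791, 0.292 and 5.15 CPM under drought, and by 3.80 without drought replicate 3. Replicate 3 was the highest drought library for SWEET11, SWEET13 and SWEET15. SUS1, a sucrose synthase, had 8.56, 10.6 and 5.85 CPM in control and 43.1, 22.9 and 85.3 CPM under drought (2.60, SE 0.43, adjusted p = 0.0007; 1.98 without replicate 3). SUS4 rose by 1.19, the sucrose transporters SUT2 and SUT1 by 0.52 and 0.35, and SUS2 fell by 0.31, which made 7 up and 1 down of 16 tested. SUS2 lost its call under 4 of 16 alternatives (adjusted p up to 0.099). Without replicate 3 SUT1 was not called (0.31, adjusted p = 0.093).

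Of 8 nitrogen genes tested, 0 rose and 4 fell, and without replicate 3 1 rose (GLN2, 0.47) and 4 fell. NRT2.3 (LOC_Os01g50820), a nitrate transporter, went from 10.9, 12.7 and 13.8 CPM to 1.24, 1.02 and 0.627 CPM (-3.70, SE 0.23, adjusted p = 7.6e-07; -3.46 without replicate 3). The groups lay far apart. GLN1-2 and GLN1-1, cytosolic glutamine synthetases, fell by 1.19 (SE 0.24) and 0.54 (SE 0.12), and GLT2, a glutamate synthase, by 0.98 (SE 0.32). GLT2 lost its call under 7 of 16 alternatives (-1.37 to -0.74, adjusted p up to 0.12).

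Of 8 tested genes that make diterpenoid phytoalexins, which rice uses against microbes, 0 rose and 6 fell, with a median of -1.55, and 7 fell without replicate 3. Of the momilactone cluster on chromosome 4, CYP99A2 (LOC_Os04g10160) went from 3.70, 12.04 and 4.95 CPM to 0.198, 0.0486 and 0.0448 CPM (-6.09, SE 0.63, adjusted p = 2.6e-05). CPS4 (LOC_Os04g09900), which makes the first ring precursor, went from 6.04, 18.8 and 9.41 CPM to 0.396, 0.681 and 0.986 CPM (-4.03, SE 0.51). KSL4 fell by 4.11 (SE 0.76) and MAS by 1.35 (SE 0.17). Control replicate 2 was the highest control for CYP99A2, CPS4 and KSL4, which without it gave -5.42, -3.47 and -3.59. Without drought replicate 1 KSL4 gave -5.91 and CYP99A2 -7.04. KSL7 and CYP76M8, of the cluster on chromosome 2, fell by 1.76 (SE 0.49) and 1.20 (SE 0.37), and CPS2 there gave 0.11 (adjusted p = 0.5). CYP76M8 lost its call under 5 of 16 alternatives (adjusted p up to 0.099). Without drought replicate 3 CYP99A2, CPS4, KSL4, MAS, KSL7 and CYP76M8 gave -5.75, -4.39, -3.76, -1.55, -2.21 and -1.71. Of 5 defence regulators and pathogenesis-related genes, PBZ1 fell by 0.87 (SE 0.19) and NH1, the rice NPR1 homologue, by 0.74 (SE 0.21). NH1 lost its call under 4 of 16 alternatives (adjusted p up to 0.092), and without replicate 3 WRKY71 (-0.50, adjusted p = 0.026) was a further gene that fell. WRKY62 had 5.29, 0.195 and 8.69 CPM under drought, which overlapped the 4.60 to 9.55 CPM of the controls (-0.56, SE 0.72, adjusted p = 0.58). Here drought replicate 2, not replicate 3, was the lone low library, and in WRKY76, at 28.4, 1.90 and 19.6 CPM, replicate 2 was the lowest as well.

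Of the jasmonate, brassinosteroid and gibberellin genes, 4 of 13, 2 of 8 and 1 of 3 were called, beside 35.6% of all genes. The jasmonate genes that rose were the repressors JAZ11 (1.66, SE 0.32) and JAZ12 (1.49, SE 0.36), the receptor COI1B (0.32, SE 0.09) and JAZ1 (0.27, adjusted p = 0.04), which was not called without replicate 3 (0.22, adjusted p = 0.099). JAZ11 stood at 13.4, 13.0 and 28.5 CPM under drought and JAZ12 at 16.3, 13.6 and 28.1 CPM, so replicate 3 was highest for both, and without it they gave 1.18 and 1.103. Of 8 brassinosteroid genes CYP85A1, of the last steps of synthesis, rose by 1.19 (SE 0.19) and BRI1, the receptor, by 0.93 (SE 0.26; 1.42 and 0.43 without replicate 3), and without replicate 3 the counts were 2 up and 2 down, with D11 (-0.40) and BZR1 (-0.66) called. The call of BRI1 was lost under 2 of 16 alternatives (adjusted p up to 0.082). GID1, the gibberellin receptor, rose from 59.7 ± 3.66 to 92.8 ± 10.9 CPM (0.64, SE 0.10, adjusted p = 0.0005; 0.55 without replicate 3) and was the 1 call of 3 gibberellin genes.

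Of 8 clock genes 1 rose and 3 fell, beside 18.0% up and 17.6% down over all genes. PCL1 (LOC_Os01g74020), of the evening complex, went from 135, 180 and 206 CPM to 9.20, 9.82 and 3.50 CPM (-4.54, SE 0.44, adjusted p = 1.6e-05; -4.20 without replicate 3). PRR95 and PRR1, pseudo-response regulators, fell by 0.93 (SE 0.14) and 0.91 (SE 0.10), and LHY, a morning factor, rose by 1.57 (SE 0.24). In replicate 3 each of the 8 lay under the mean of drought replicates 1 and 2, with a median difference of -0.41. The hour of harvest is not given for any library and cannot be told apart from the treatment. MADS14 and MADS18, which act in the switch to flowering, fell by 4.95 (SE 0.64) and 0.67 (SE 0.11). MADS50 fell by 0.33 (adjusted p = 0.041) and was not called without replicate 3 (-0.25, adjusted p = 0.11), so 3 of 5 tested flowering genes fell, and 2 without it.

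Of 3 cell division genes 1 rose and 1 fell, and without replicate 3 0 rose and 1 fell. PCNA, the replication clamp, stood at 14.8, 12.2 and 14.5 CPM in control and 10.8, 10.3 and 11.9 CPM under drought (-0.33, SE 0.11, adjusted p = 0.03), and MCM2, of the replicative helicase, rose by 0.74 (SE 0.22, adjusted p = 0.021; 0.60, adjusted p = 0.071 without replicate 3). The summed level of the 3 cell division genes, most of it PCNA, was 14.1 to 17.2 CPM in control and 12.4 to 15.1 CPM under drought. LSI1, a silicon channel of roots, stood at 18.8 to 20.3 CPM in control and at 18.5, 13.2 and 3.94 CPM under drought, and FON1, a receptor kinase of the shoot apex, at 28.4 to 31.9 CPM and then 27.9, 26.2 and 12.1 CPM. Neither passed the test (adjusted p = 0.15 and 0.21), and both were lowest in replicate 3. MADS1, of the inflorescence, stayed at 1.00 CPM or less in all 6 libraries.

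Drought replicate 3 did not shift all genes one way. Of the 8129 called genes, 1022 (12.6%) lay at least 2-fold from the mean of drought replicates 1 and 2 in it, 683 of them farther from control and 339 nearer, and the first 2 replicates were at least 2-fold apart for 498. By list, replicate 3 was set against the same mean of drought replicates 1 and 2. It lay above for the primary wall synthases (6 of 6, median 0.55), defence genes (5 of 5, median 0.88) and LEA proteins (8 of 8). It lay below for chlorophyll synthesis (9 of 10, median -0.84), aquaporins (13 of 15) and the clock (8 of 8). A place above that mean need not be the highest: replicate 2 held more of RAB16B, RAB16C and LEA3-2. For WRKY62 and WRKY76 a low replicate 2 pulled the mean down. Against the 4135 genes that changed at least 2-fold in wild type leaves, the median share of the wild type log2 change was 65.2% in drought replicate 1, 77.4% in replicate 2 and 72.6% in replicate 3. For genes raised in wild type the shares were 71.9%, 77.3% and 82.5%, and for genes lowered 59.8%, 77.4% and 62.8%. Replicate 3 was thus highest for raised genes and, with replicate 1, low for lowered ones. These genes were chosen for large changes in wild type, so a share under 100% is no test of a smaller response.

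**Figure D5:**
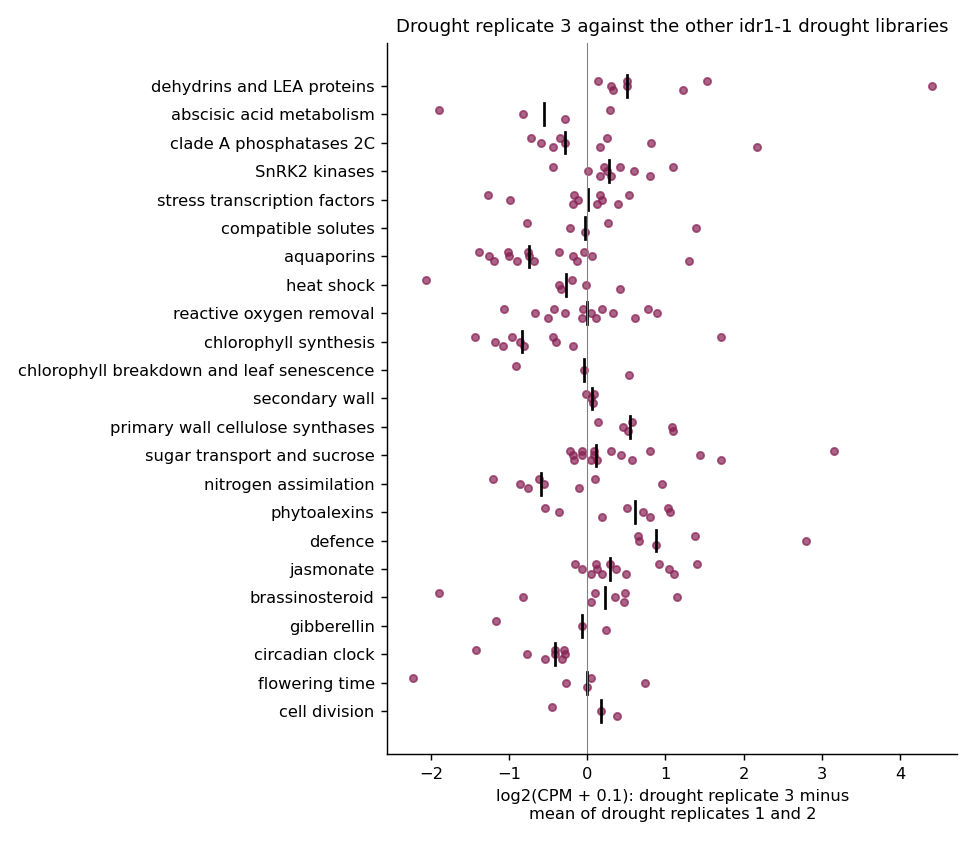
Difference of log2(CPM + 0.1) between drought replicate 3 and the mean of drought replicates 1 and 2 (x axis) for each tested member of the lists with 3 or more tested members (y axis), with a bar at the list median. All LEA members, primary wall synthases and defence genes lie above 0, and all clock genes lie below it.

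Where the idr1-1 response differed from that of wild type was asked through the difference of the responses in the same fit. With all libraries, 11 of 22833 genes (0.0482%) passed, and none is on the lists (3540 genes had an unadjusted p under 0.05). The log2 fold change was higher in idr1-1 than in wild type for 3 of them and lower for 8. A lower value can be a deeper fall, as in LOC_Os03g62200 (-3.70 in idr1-1 and -1.74 in wild type). It can also be a fall against a rise, as in LOC_Os10g39090 (-0.44 and 1.40). The smallest adjusted p among the named genes was 0.069. Without drought replicate 3, 489 of 23197 genes (2.11%) passed, the 11 among them, 223 with a higher and 266 with a lower log2 fold change in idr1-1. They then held 10 named genes. The secondary wall genes CESA4, CESA7 and CESA9 differed by 2.90, 2.94 and 2.83 (SE 0.55, 0.60 and 0.55; adjusted p = 0.03, 0.037 and 0.031), and by 2.92, 2.93 and 2.85 with all libraries (adjusted p = 0.069, 0.081 and 0.07). In wild type CESA4 stood at 12.8, 9.77 and 14.8 CPM in control and 12.7, 8.06 and 8.79 CPM under drought, so the mutant differed in that its control level was low and its drought level lay in or above that range. Of the primary wall genes CESA5 differed by 1.70 and CESA6 by 1.15 (adjusted p = 0.033 and 0.03). CESA5 fell in wild type (-1.16 over all libraries, adjusted p = 0.0027). In idr1-1 it gave 0.76, and 0.54 (adjusted p = 0.12, not called) without replicate 3. CESA6 gave 1.34 in idr1-1 and 0.14 in wild type over all libraries.

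Of the other named genes that differed without replicate 3, SAPK7 fell in both genotypes and less in idr1-1 (difference 0.90, adjusted p = 0.035), and P5CS2 rose less in idr1-1 (-1.32, adjusted p = 0.046). TIP1-1, a vacuolar channel, differed by 0.81 (adjusted p = 0.02), with a log2 fold change of 0.57 in idr1-1 and -0.01 in wild type over all libraries. NIA1, a nitrate reductase, differed by 1.02 and CYP90B2, of brassinosteroid synthesis, by 1.46 (adjusted p = 0.043 and 0.046). Over all libraries NIA1 gave -0.10 in idr1-1 and -0.83 in wild type, and CYP90B2 gave -0.86 and -1.92. With all libraries the adjusted p for these 5 genes was 0.069 for SAPK7 and 0.35 to 0.51 for the other 4. These calls rest on 2 idr1-1 drought libraries, and the number of such calls also moved with each other idr1-1 library left out. No wild type library was left out.

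Among loci without a name and with at least 50 counts in each library of the higher group, the following had the largest fitted changes in each direction. LOC_Os08g34390 had 0 counts in the 3 control libraries and 32.9, 51.2 and 40.5 CPM under drought, at least 834-fold higher against a floor of 3 counts over the group. LOC_Os11g43790 had 0 control counts and 10.6, 22.9 and 52.7 CPM under drought, at least 592-fold higher, with replicate 3 the highest. The fitted log2 fold changes of these loci were 12.82 and 12.29, and 12.83 and 11.5 without drought replicate 3. LOC_Os01g09190 went from 1461 counts in control to 3 under drought, a ratio of 510 (95% counting interval 174 to 2478), and LOC_Os09g19510 from 479 counts to 1 (ratio 502, 89.7 to 19870). They gave -8.845 and -8.53 with all libraries, and -8.28 and -8.05 without replicate 3.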

How the data were processed

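Messenger RNA was sequenced from leaves in 12 libraries, 3 biological replicates for each genotype and treatment, and the groups were read from the labels. The deposited values are estimated counts per locus that the authors made with HISAT2 2.1.0 and featureCounts 1.6.3, per the submitters' processing notes. The build, annotation and strandedness are not given in the sources used. Each file holds 55986 entries, 55801 of them with LOC_Os identifiers. Of the nonzero values 13.8% were not whole, so reads were partly shared in fractions, and values of near-identical, overlapping or antisense genes are uncertain. Values were rounded to whole numbers.

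The rounded counts went into edgeR 4.0.16 under R 4.3.3, with filterByExpr and TMM factors. The quasi-likelihood test had 1 mean for each group of the 12 libraries and 8 residual degrees of freedom, with a Benjamini-Hochberg threshold of 0.05. The procedure was also run on simulated counts with the same spread in every gene and library. That run had no outlying library, so it does not cover a library like drought replicate 3. The standard error is the fold change over the root of its F statistic. Alternatives used DESeq2 1.42.0, limma 3.58.1 (voom with quality weights), other scalings, filters and left-out libraries. Totals were 19100444 to 25109848 counts per library. A floor of 3 counts is 0.119 to 0.157 CPM in a single library. A fold against a group with no count is computed from 3 counts over the group. Counting intervals (Clopper-Pearson, 95%) and floors cover counting error alone, as no molecular identifiers are named. How the biological replicates were kept apart is not given, so p-values measure the spread between these samples.

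The files hold locus identifiers without names, and the gene table used held 0 of the LOC_Os identifiers (assembly ASM3414082v1). Published locus assignments were recalled for 290 members of 30 lists. The table held 216 of the names, and 210 were used: those that it placed on the chromosome of the locus and within 1.5 Mb of the place expected from the locus number (at most 1.158 Mb off). That limit was raised from 1 Mb after the distances were seen, with no expression value used. The check would not detect a name given to a neighbouring locus. The members and lists were chosen with earlier results of these data known. Genes named in the text are, per list, up to 4 called members with the largest change and no overlap of the groups, those set farthest apart by drought replicate 3 or losing their call without it, and those that differ between genotypes. Further list members were named after their values were seen, and the 2 unnamed loci in each direction have at least 50 counts in each library of the higher group. 1 item is not reported here. A planned search of promoters for motifs was not run, since no promoter sequences were used here.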

Additional observations from a re-analysis of the deposited data

How the results depend on the processing

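The number of genes called for drought against control in idr1-1 was within 1.5 times of 8129 under each of 16 alternatives, from 5580 with the 6 idr1-1 libraries alone to 8629 with limma voom and quality weights. Leaving out 1 idr1-1 library gave 6480 to 8590. Library size alone was the scaling with more genes down (3813) than up (3346). Of 88 named genes, 64 kept their direction and side of the threshold under all alternatives, 24 changed side under some and 0 reversed. Those that lost their call under some were PP2C08, DREB1C, P5CS2, TPP1, TPP2, BADH1, PIP2-5, HSFA2D, RBOHB, CHLG, CESA2, CESA3, CESA5, SUT1, GLT2, NH1, COI1B, JAZ1, BRI1, MADS50, PCNA and MCM2, while MADS1 and LSI1 gained one. TIP1-1, CYP76M8, SUS2, APX8 and CATB, named outside the rule, also lost theirs under some. Others named outside the rule gained a call under some, ABA8OX1 and ABA8OX2 among them. RGA1 was not called under any, from -0.03 to 0.16. The median share of the wild type response in drought replicate 3, checked with library size alone after seeing the data, was 72.2%.

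The number of genes whose response differed from wild type depended on the settings. It was 11 in the report, 708 with DESeq2, 371 with limma voom, 82 without a filter on low counts and 2 with library size alone. Leaving out 1 idr1-1 library gave 0 to 582: 0 without control replicate 1 or drought replicate 1, 2 without control replicate 3, 241 without control replicate 2, 489 without drought replicate 3 and 582 without drought replicate 2. The cause was not tested. The replicate block gave 7220 genes for drought against control and 0 for the difference, where the report has 8129 and 11. Same-numbered control and drought libraries of idr1-1 did not deviate together (correlations -0.15, -0.26 and -0.31). The highest value was 0.40, between control replicate 3 and drought replicate 2. These values gave no sign that the numbers pair the samples. Deviations from a mean of 3 libraries are tied to each other, so the check cannot exclude pairing.

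Drought replicate 3 lay at least 2-fold from the mean of the other drought libraries for 2627 of 22833 tested genes, and with 3 libraries a group it weighs on their spread. Genes at a few counts have fold changes that depend on those counts.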
